A study of Mus musculus with 2 samples.

Results

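A group of 39 genes of the endoplasmic reticulum (ER), coding for its chaperones, disulfide isomerases, degradation machinery, translocon and stress sensors, was examined in dendritic cells (DC), the antigen-presenting cells that prime T cells. The 39 were given by name and found by their Entrez Gene numbers in the deposited gene tables, which list 18090 genes in all. All 39 had reads in each library. The mature DC had been given lipopolysaccharide (LPS, a bacterial cell wall component) at 100 ng/ml for 24 h, and the immature DC are labelled only by that stage. The marrow cells of each group, from C57BL/6 mice, had first been grown over 6 days in RPMI-1640 with GM-CSF (10 ng/ml) and IL-4 (1 ng/ml), and each group was sorted on CD86 and I-Ab. The treatment protocol attaches LPS to "sample 2", read here as the mature library; the sort gates, the number of animals, and whether the immature cells had a further 24 h of culture too are not stated in the labels.

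There was 1 library per group, of 8.07 M counted reads for mature DC and 7.56 M for immature DC, so no test between the states was possible and each difference is one between 2 libraries. Levels are RPKM, reads per kilobase of gene model and per 1000000 counted reads. Ratios are of mature over immature RPKM, and the range after each fold is its exact 95% interval, which covers counting error only. In bulk RNA, fewer cells of a type and less RNA per cell cannot be told apart. Cd86, the gene of the sorted surface marker, stood at 152 RPKM in the mature and 26.1 RPKM in the immature library, and Cd74, a defining gene of antigen-presenting cells and the most abundant DC marker here, at 2910 RPKM in mature and 5173 RPKM in immature DC. Of the 10 DC markers, 5 were at least 2-fold higher, 1 lower and 4 within 2-fold. The class II chain genes H2-Ab1, H2-Aa and H2-Eb1 stood at 978, 1260.4 and 732 RPKM in the mature and at 1256, 1159 and 655 RPKM in the immature library.

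Secreted and membrane proteins enter the ER through the Sec61 channel, lose their signal peptide, receive N-glycans and disulfide bonds, and fold with the help of Hsp70, Hsp90 and lectin chaperones. Proteins that do not fold are sent back to the cytosol for degradation. When unfolded proteins build up, 3 membrane sensors set off the unfolded protein response: IRE1 (Ern1), which splices Xbp1 mRNA, PERK (Eif2ak3), which phosphorylates the initiation factor eIF2, and ATF6, which is cut and moves to the nucleus. In DC, XBP1 and IRE1 are known for their part in the survival and antigen presentation of some DC subsets.

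Hsp90b1, Sdf2l1, Creld2, Pdia6, Sec61b and Ssr4 were at least 2-fold lower in mature DC, and Ern1, Ddit3 and Ppp1r15a at least 2-fold higher. The remaining 29 of the 38 members with at least 1 RPKM in a library lay within 2-fold, on a scale of log2(RPKM + 1). Derl3, a derlin best known from plasma cells, was under 1 RPKM in each library and was not compared. Of the members, 15.8% were at least 2-fold lower, beside 11.3% of all 11547 compared genes, and 7.89% at least 2-fold higher, beside 9.05%, so these counts lie near the background. Together, 23.7% of the members were past 2-fold, beside 20.4% of all compared genes.

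Small shifts in one direction were more frequent. The median log2 fold over the 38 members was -0.31, beside 0.026 over all compared genes. The counting interval of the ratio lay wholly below 1 for 23 members (60.5%), beside 33.8% of all compared genes, and wholly above 1 for 9 members (23.7%), beside 36.1%. It spanned 1 for 6 members: Sel1l, Derl1, Sec61g, Sec11c, Spcs1 and Eif2ak3. Most members are abundant, which narrows the interval. Among the 35 members with at least 10 RPKM in a library, 62.9% lay wholly below 1, beside 41.1% of the 6653 compared genes of that level, and 25.7% wholly above 1, beside 40.0%. At that level 8.57% of the members were at least 2-fold higher in mature DC, beside 9.71%, and 17.1% at least 2-fold lower, beside 12.6% (22.3% of those genes were past 2-fold in all). Outside the sensors and transcription factors, a role in which the phosphatase subunit gene Ppp1r15a was counted, 22 of 32 compared members lay wholly below 1. That is 68.8%, beside 33.8% of all compared genes. There were 5 wholly above, and the median was -0.44. The role set aside held 4 of 6 genes wholly above 1 and had a median of 0.87, so these lower values follow in part from its removal.

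**Figure D1:**
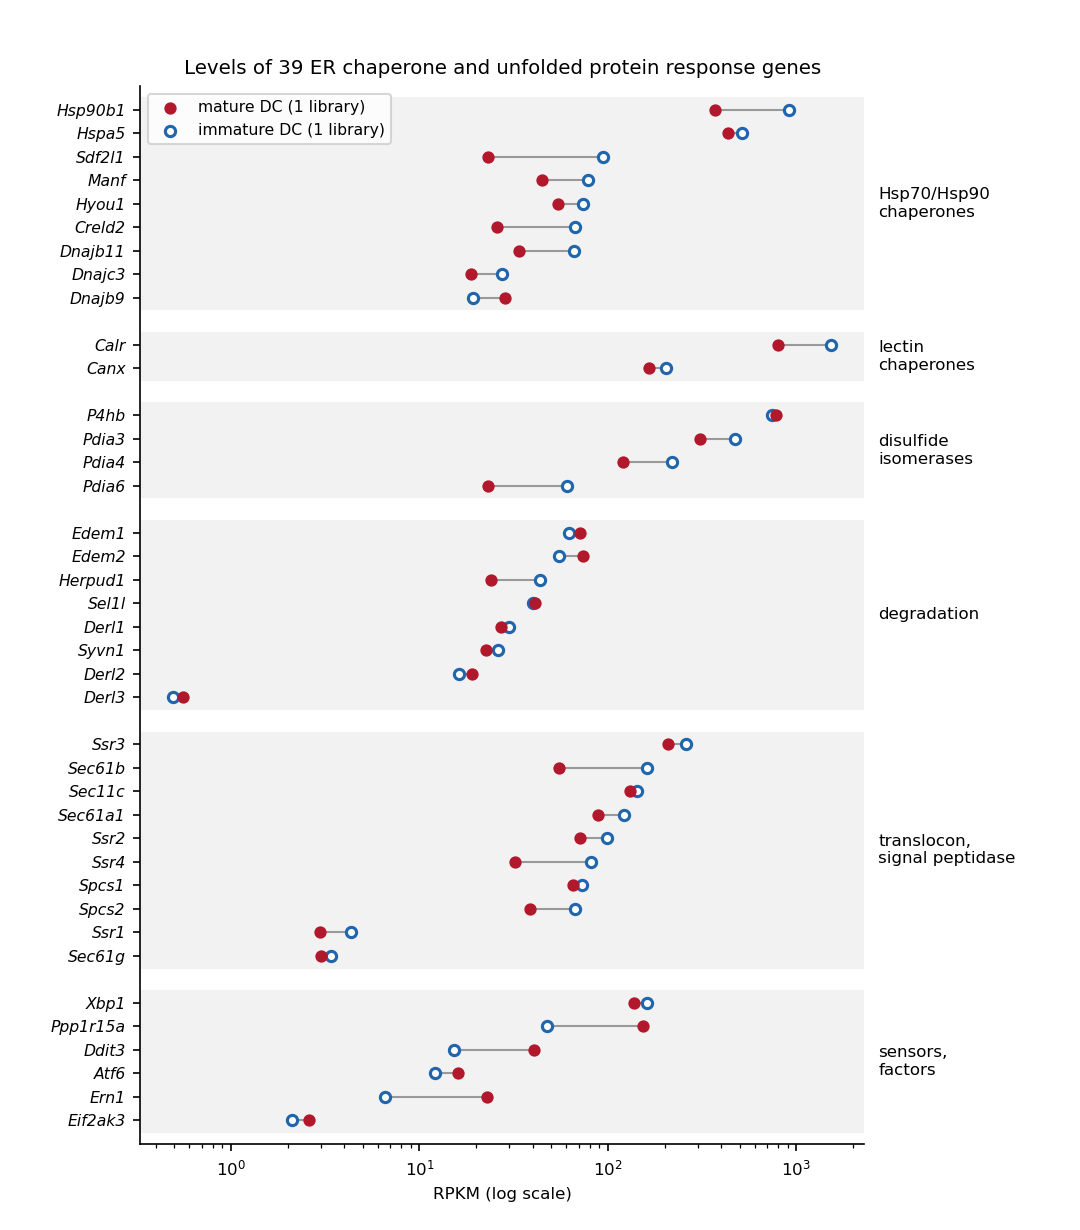
RPKM (log axis) of each of the 39 genes in the mature (filled) and the immature (open) library, 1 library each, grouped by role. Calr is the most abundant member in each library, at 798 RPKM in mature and 1528 RPKM in immature DC, and Derl3 the least abundant, at 0.556 RPKM in mature and 0.495 RPKM in immature DC.

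Reads on the 39 genes made up 1.15% of all counted reads in the mature library (exact binomial 95% interval 1.14 to 1.16%) and 1.60% in the immature library (1.59 to 1.61%), a 1.39-fold lower share (1.38 to 1.40). A few genes weighed heavily in this share. Of the 92986 mature and 121160 immature reads on the members, Calr held 12521 mature and 22453 immature reads. Hsp90b1 held 8287 mature and 19063 immature reads, and P4hb, near level, 15902 mature and 14291 immature reads. The share differed by role, and Calr and Hsp90b1 weigh in the same way on the lectin chaperones and on the Hsp70 and Hsp90 role. The Hsp70 and Hsp90 chaperones and their co-chaperones took 0.280% of mature and 0.490% of immature reads, and the lectin chaperones 0.226% of mature and 0.384% of immature reads. The disulfide isomerases took 0.315% of mature and 0.385% of immature reads, and the translocon and signal peptidase genes 0.132% of mature and 0.181% of immature reads. The degradation genes were near even, at 0.112% of mature and 0.107% of immature reads. The sensors and transcription factors took the larger share in the mature library, 0.0870% against 0.0545% in the immature library. Ppp1r15a, a phosphatase subunit gene counted in this role, held 2909 of its 7020 mature and 841 of its 4122 immature reads.

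**Figure D2:**
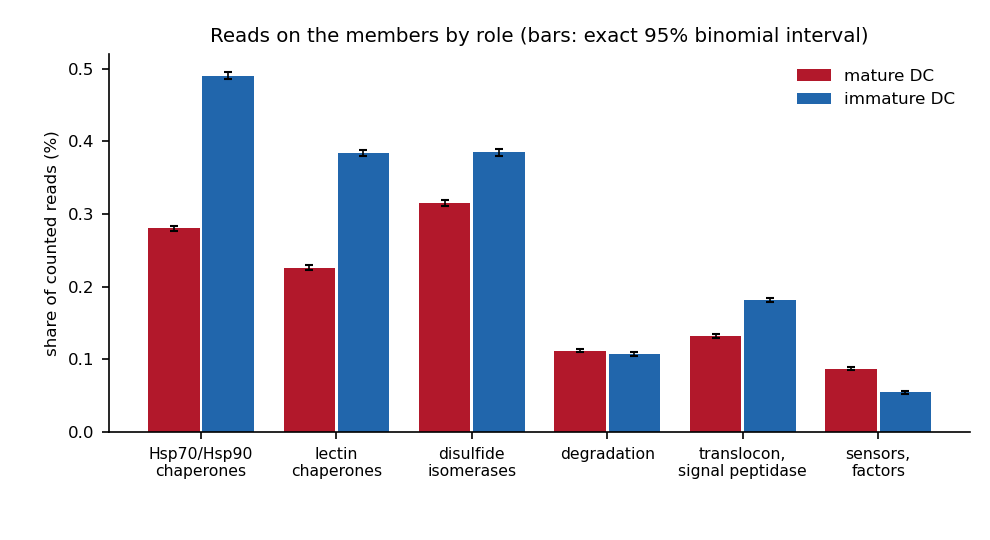
Percent of all counted reads that fell on the members of each role, mature DC left and immature DC right of each pair, with exact binomial 95% intervals as error bars. The mature bar is the lower one for chaperones, isomerases and translocon. It is the higher one for degradation genes, by 1.04-fold, and for the sensors and factors, a role that includes Ppp1r15a.

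Many ER chaperone genes are known to share a promoter element, the ER stress response element (ERSE), bound by ATF6 and NF-Y. Its letters, CCAAT and CCACG with any 9 bases between them, were searched on both strands in the 250 bases before each annotated start in RefSeq's promoter table (build GRCm38.p6), which held 32 of the 39 members. They were present for 9 of the 32 members (28.1%), beside 35 of the 27025 genes in the table (0.130%), or 0.113% of its 32851 windows. The holders are chaperone, isomerase and degradation genes, and the matches are shown as a promoter feature that these 9 share; each is printed 5′ to 3′ in the direction of the element, with the fixed letters in capitals.
Hspa5: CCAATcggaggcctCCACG
Hsp90b1 at 107 bases: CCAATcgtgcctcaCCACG
Hsp90b1 at 212 bases: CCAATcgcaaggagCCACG
Dnajc3: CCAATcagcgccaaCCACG
Creld2: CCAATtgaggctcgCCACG
Calr: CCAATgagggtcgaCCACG
Canx: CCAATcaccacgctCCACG
Pdia6: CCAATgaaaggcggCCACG
Syvn1: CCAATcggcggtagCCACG
Derl3: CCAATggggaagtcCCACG
Hsp90b1 carried the element at 2 places, 107 and 212 bases before its start, in opposite directions. A letter match describes the window and is not a measured binding site, and near matches were not searched.

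The holders included near-level and strongly lower genes. Hsp90b1, Pdia6 and Creld2 were more than 2-fold lower in the mature library, Calr 1.91-fold lower, Dnajc3 1.46-fold lower, and Canx, Hspa5 and Syvn1 between 1.16- and 1.23-fold lower. Derl3 was too low to compare. In the whole table, 13 compared genes had the element: the 8 members above and the non-members Pan2, Adcy3, Alg12, Hnrnpa3 and Ero1b, which are named because they complete this set. Of the 13, 4 (30.8%) were at least 2-fold lower in the mature library and 0 at least 2-fold higher, with a median log2 fold of -0.52. Among all 8865 compared genes with a promoter window the percentages were 11.3 lower and 8.78 higher, and the median was 0.028. The 4 lower genes were the members Hsp90b1, Pdia6 and Creld2 and the non-member Hnrnpa3, so this share largely restates the member values. Hnrnpa3 was 2.13-fold lower (1.88 to 2.41), with an interval not wholly beyond 2-fold. The other non-members were mixed. Alg12 was 1.63-fold higher, Pan2 level (1.00) and Ero1b 1.47-fold lower. Adcy3 was 3.20-fold lower (1.82 to 5.91) by plain ratio, on 17 mature and 51 immature reads. At 0.445 RPKM in mature and 1.43 RPKM in immature DC, its log2 fold with the pseudocount of 1 RPKM was -0.75. It is therefore not among the 4, and its call rests on that pseudocount. Whether the element bears on these levels was not tested. Sdf2l1, the member with the lowest ratio, had no match to these letters.

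The 250 bases before the start are printed for 4 holders, Hspa5 (chr2:34771840-34772089, plus strand), Hsp90b1 (chr10:86705445-86705694, minus strand), Creld2 (chr15:88819396-88819645, plus strand) and Pdia6 (chr12:17266339-17266588, plus strand), because Hspa5 is the standard reporter of the response and the other 3 are the holders more than 2-fold lower. Herpud1 (chr8:94386179-94386428, plus strand) and Ppp1r15a (chr7:45526269-45526518, minus strand) are shown for the other elements found among members. All are GRCm38.p6, 5′ to 3′ along the gene, and capitals mark fixed letters of a match.
Hspa5: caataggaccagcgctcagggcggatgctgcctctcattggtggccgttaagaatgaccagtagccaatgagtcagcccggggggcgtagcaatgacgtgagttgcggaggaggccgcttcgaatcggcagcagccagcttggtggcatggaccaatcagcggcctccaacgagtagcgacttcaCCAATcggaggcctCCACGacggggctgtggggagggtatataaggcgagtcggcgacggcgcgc
Hsp90b1: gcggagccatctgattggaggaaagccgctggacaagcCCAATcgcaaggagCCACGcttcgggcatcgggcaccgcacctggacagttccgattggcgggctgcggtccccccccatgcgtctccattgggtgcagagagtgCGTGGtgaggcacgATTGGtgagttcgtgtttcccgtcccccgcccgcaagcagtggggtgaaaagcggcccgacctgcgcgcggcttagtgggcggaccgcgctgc
Creld2: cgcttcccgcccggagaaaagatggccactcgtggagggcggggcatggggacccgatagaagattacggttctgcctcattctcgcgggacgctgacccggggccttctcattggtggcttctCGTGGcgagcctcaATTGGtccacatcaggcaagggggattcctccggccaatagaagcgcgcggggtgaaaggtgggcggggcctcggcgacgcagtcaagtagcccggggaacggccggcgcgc
Pdia6: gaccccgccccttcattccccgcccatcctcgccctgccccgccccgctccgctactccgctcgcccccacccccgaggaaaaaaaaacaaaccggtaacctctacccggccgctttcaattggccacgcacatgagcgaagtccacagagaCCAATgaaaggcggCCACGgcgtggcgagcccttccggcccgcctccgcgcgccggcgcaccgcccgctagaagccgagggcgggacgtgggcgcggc
Herpud1: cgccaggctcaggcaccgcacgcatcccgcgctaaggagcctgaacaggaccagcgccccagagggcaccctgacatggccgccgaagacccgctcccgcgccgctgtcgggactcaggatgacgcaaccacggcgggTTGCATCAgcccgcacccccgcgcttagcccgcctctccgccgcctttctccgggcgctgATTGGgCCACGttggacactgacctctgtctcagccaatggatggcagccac
Ppp1r15a: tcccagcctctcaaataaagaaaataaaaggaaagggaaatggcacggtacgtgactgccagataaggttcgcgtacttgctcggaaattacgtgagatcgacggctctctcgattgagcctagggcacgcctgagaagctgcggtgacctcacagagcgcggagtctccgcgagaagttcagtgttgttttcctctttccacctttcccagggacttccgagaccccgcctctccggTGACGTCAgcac
Herpud1 held the second form of the element, ATTGG and CCACG with any 1 base between them, 52 bases before its start, which 0.0304% of all windows hold, and the C/EBP and ATF4 type letters TGATGCAA on the opposite strand, found in 0.791% of windows. Ppp1r15a held the palindrome TGACGTCA, the cyclic AMP response element bound by CREB and ATF proteins, 12 bases before its start, found in 1.55% of windows. The XBP1 type letters TGACGTGG, found in 0.563% of windows, were in none of the 32 member windows. Of the 276 compared genes with TGACGTCA, 7.25% were at least 2-fold higher and 8.33% lower in the mature library. Of the 59 with TGATGCAA, 10.2% were higher and 16.9% lower. The 6 compared genes with the second form had a median log2 fold of 0.073, with 0 past 2-fold. Among all 8865 compared genes with a window, 8.78% were higher and 11.3% lower.

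**Figure D3:**
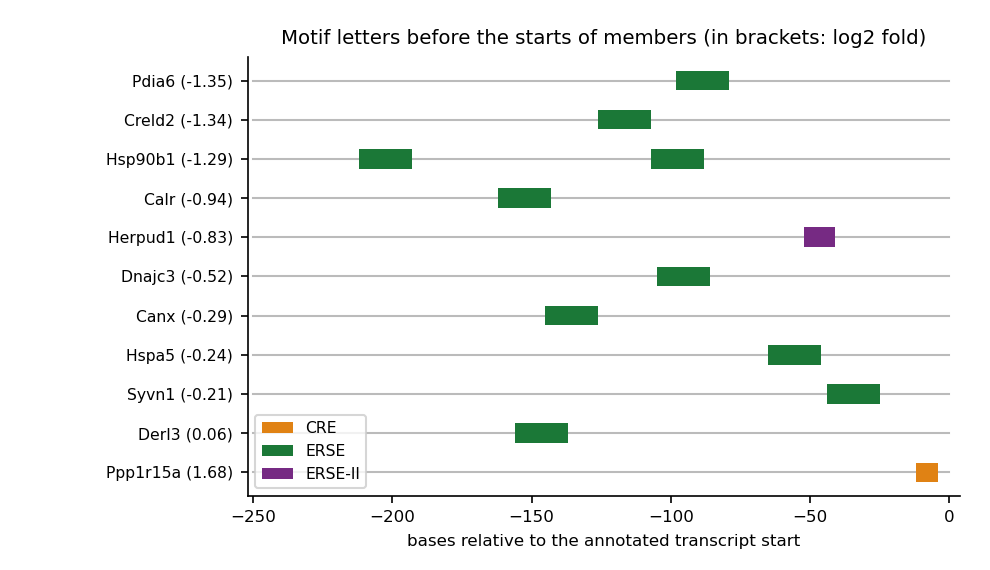
Positions of the ERSE, ERSE-II and CRE letters in the 250 bases before the annotated start of the 11 members that hold one (x axis, bases from the start), ordered by log2 fold from the lowest, Pdia6 at -1.35, to the highest, Ppp1r15a at 1.68. The ERSE matches lie between 212 and 26 bases before the start.

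Among the luminal chaperones, Hsp90b1 (Entrez Gene 22027), the Hsp90 of the ER that folds integrins and Toll-like receptors, had 8287 reads and 372 RPKM in the mature library against 19063 reads and 914 RPKM in the immature one. It was thus 2.46-fold lower in mature DC (2.39 to 2.52). Hspa5 (14828), which encodes BiP, the Hsp70 of the ER and the keeper of the sensors in their inactive state, had 9207 reads and 436 RPKM in the mature against 10168 reads and 514 RPKM in the immature library, 1.18-fold lower (1.15 to 1.21). The order of these 2 abundant chaperones was therefore turned round: per length, Hspa5 stood at 1.17 times Hsp90b1 in the mature and 0.563 times in the immature library.

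The co-chaperones and cofactors of BiP included the lowest ratio of the group. Sdf2l1 (64136), a partner of BiP and its J proteins, had 208 reads and 23.0 RPKM in mature against 799 reads and 94.5 RPKM in immature DC, 4.10-fold lower (3.52 to 4.80). Creld2 (76737), an ER protein induced by stress, had 284 reads and 25.8 RPKM in mature against 690 reads and 66.9 RPKM in immature DC and was 2.59-fold lower (2.26 to 2.99). Dnajb11 (67838), a J protein of BiP, stood at 33.6 RPKM in mature and 66.4 RPKM in immature DC, 1.98-fold lower (1.80 to 2.17). It therefore lay just inside 2-fold. Manf, a secreted ER stress factor, stood at 44.6 RPKM in mature against 78.2 RPKM in immature DC, 1.75-fold lower (1.60 to 1.91). Dnajc3, a J protein also called p58IPK, stood at 18.7 RPKM in mature against 27.3 RPKM in immature DC, 1.46-fold lower (1.33 to 1.60). Hyou1, the nucleotide exchange factor of BiP, was 1.35-fold lower (1.28 to 1.44). The mature library was thus the lower one for these cofactors, by 1.35- to 4.10-fold. Dnajb9 (27362), the J protein ERdj4 that returns IRE1 to BiP, was the exception in this role, with 429 reads and 28.5 RPKM in mature against 272 reads and 19.3 RPKM in immature DC, 1.48-fold higher (1.27 to 1.73).

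The lectin chaperones hold newly made glycoproteins and, with Pdia3, also fold MHC class I. Calr (12317), the soluble one, had 12521 reads and 798 RPKM in mature against 22453 reads and 1528 RPKM in immature DC, 1.91-fold lower (1.87 to 1.96). Canx (12330), its membrane-bound relative, had 5716 reads and 165 RPKM in mature against 6570 reads and 202 RPKM in immature DC, 1.23-fold lower (1.18 to 1.27). The Calr level was 4.84 times that of Canx in the mature and 7.55 times in the immature library.

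The disulfide isomerases ranged from level to more than 2-fold lower. P4hb (18453), the classical protein disulfide isomerase, was near level, with 15902 reads and 776 RPKM in mature against 14291 reads and 744 RPKM in immature DC, 1.04-fold higher (1.02 to 1.07). Pdia3 (14827), the partner of both lectin chaperones, stood at 308 RPKM in mature against 473 RPKM in immature DC, 1.54-fold lower (1.49 to 1.59). Pdia4 (12304) stood at 120 RPKM in mature and 219 RPKM in immature DC, 1.83-fold lower (1.74 to 1.92). Pdia6 (71853), which acts on BiP clients and on IRE1, had 399 reads and 23.3 RPKM in mature against 977 reads and 60.8 RPKM in immature DC, 2.61-fold lower (2.32 to 2.94). Reads covered 44.5% of its length in the mature and 47.5% in the immature library. P4hb stood at 2.09 times the level of Hsp90b1 in mature and 0.815 times in immature DC.

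**Figure D4:**
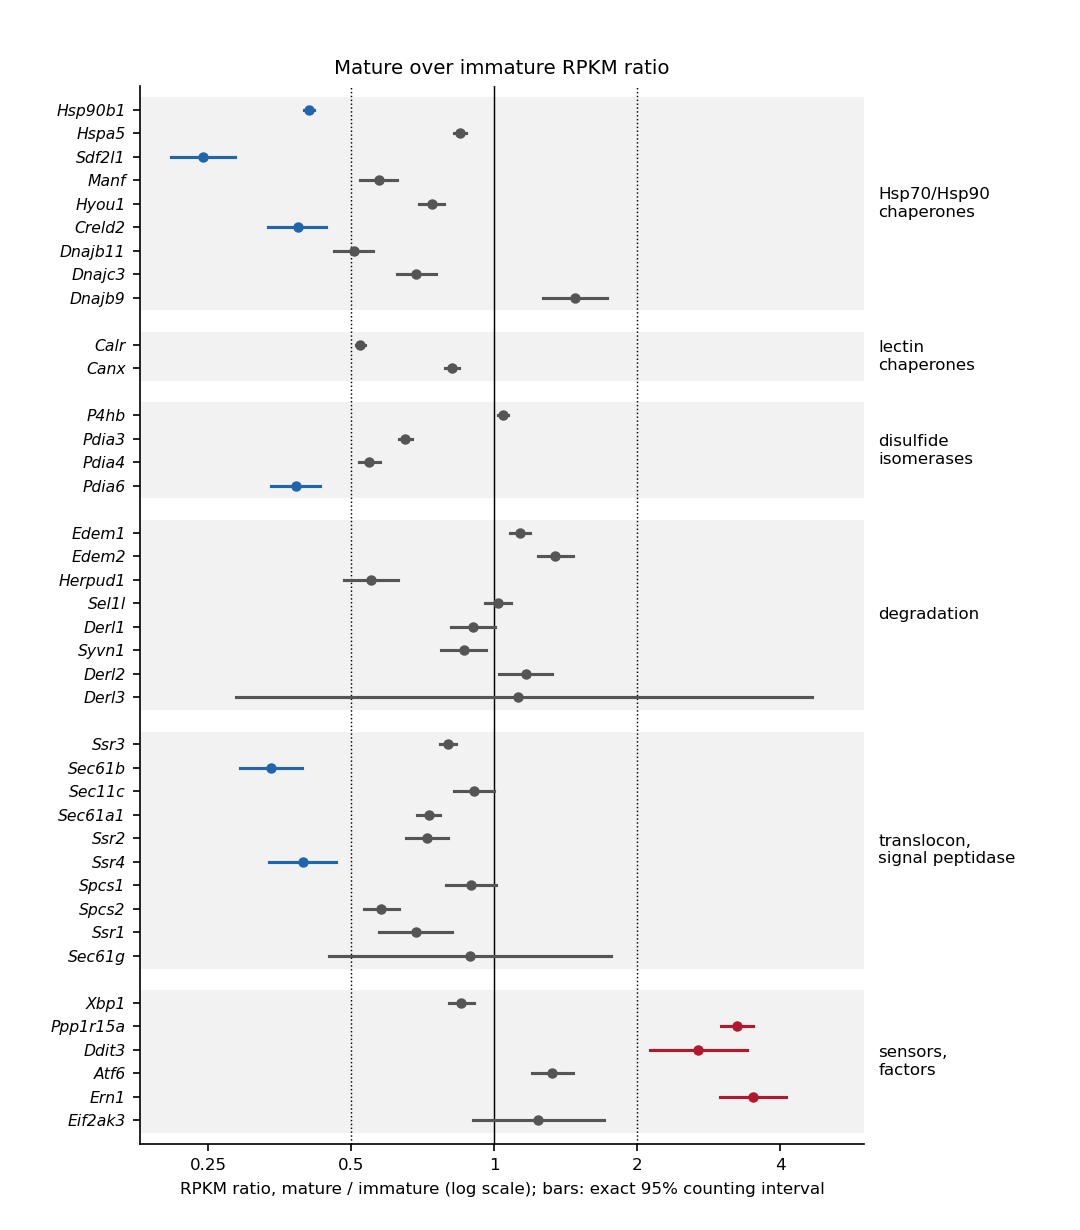
Ratio of mature over immature RPKM (log axis) of each member with its exact 95% counting interval, by role; the solid line is 1, dotted lines are 2-fold, blue marks members at least 2-fold lower and red those at least 2-fold higher on the log2(RPKM + 1) scale. Most chaperone, isomerase and translocon genes lie left of 1, the degradation genes lie around it, and Ern1, Ddit3 and Ppp1r15a lie right of 2.

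The degradation genes lay on either side of 1, and their median log2 fold, 0.026, stood beside 0.026 over all compared genes. Edem2 (108687), which trims mannose on misfolded glycoproteins, had 1371 reads and 74.0 RPKM in mature against 955 reads and 55.0 RPKM in immature DC, 1.34-fold higher (1.24 to 1.46). Edem1, of the same family, was 1.13-fold higher (1.08 to 1.19), and Derl2, a derlin of the retrotranslocation channel, 1.16-fold higher (1.03 to 1.32). Sel1l and Syvn1 form the core ubiquitin ligase of this pathway and were close to level. Sel1l stood at 41.0 RPKM in mature against 40.3 RPKM in immature DC, with an interval that spans 1, and Syvn1 was 1.16-fold lower in mature DC (1.04 to 1.30). Herpud1 (64209), a scaffold of that ligase with a short-lived protein, stood apart from the others at 363 reads and 24.0 RPKM in mature against 617 reads and 43.6 RPKM in immature DC, 1.81-fold lower (1.59 to 2.07). Derl3 had 6 reads in the mature and 5 in the immature library.

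In the translocon, the subunits of 1 complex differed from each other. Sec61a1 (53421), the pore subunit, had 2177 reads and 88.7 RPKM in mature against 2802 reads and 122 RPKM in immature DC, 1.37-fold lower (1.30 to 1.45). Sec61b (66212), a small subunit, had 244 reads and 54.8 RPKM in mature against 674 reads and 161 RPKM in immature DC, 2.95-fold lower (2.54 to 3.43). Sec61b thus stood at 0.617 times the level of Sec61a1 in the mature and 1.32 times in the immature library. Sec61g, the third subunit, rested on 19 mature and 20 immature reads over 37.5% and 16.8% of its length and stood at 0.0340 times Sec61a1 in mature and 0.0278 times in immature DC. The source of this gap between subunits of 1 channel was not tested.

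The translocon-associated protein complex, which helps some signal peptides insert, showed the same unevenness. Ssr3 (67437) was its most abundant gene at 208 RPKM in mature and 261 RPKM in immature DC, 1.25-fold lower (1.20 to 1.30). Ssr4 (20832) had 213 reads and 32.1 RPKM in mature against 505 reads and 81.3 RPKM in immature DC, 2.53-fold lower (2.15 to 2.98). Ssr2 was 1.39-fold lower (1.25 to 1.53), and Ssr1 1.46-fold lower (1.23 to 1.75) on reads over 29.4% and 37.1% of its length in the mature and immature libraries. In the signal peptidase, Sec11c, a catalytic subunit, stood at 130.3 RPKM in mature against 144 RPKM in immature DC and Spcs1 at 65.4 RPKM in mature against 73.2 RPKM in immature DC, each with an interval that spans 1. Spcs2, another subunit, was 1.73-fold lower in mature DC (1.59 to 1.88). No translocon or signal peptidase member was higher in the mature library, though Sec11c, Sec61g and Spcs1 turned sign under at least 1 other setting.

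Gene length moved with the log2 fold in these libraries. The 1169 compared genes under 1000 bases had a median log2 fold of -0.31, with 19.3% of them at least 2-fold lower in mature DC, and the 2965 genes of 4000 bases and over a median of 0.196, with 7.08% lower. Sec61b and Ssr4 belong to the short class. With the running median over length removed, Sec61b was at a log2 fold of -1.19 and Ssr4 at -1.05, against -1.54 and -1.31 without this step, and the same 6 members remained at least 2-fold lower.

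The role of sensors and transcription factors, with Ppp1r15a counted in it, gave the highest ratios of the group. Ern1 (78943), the sensor IRE1 alpha, had 736 reads and 22.9 RPKM in mature against 197 reads and 6.55 RPKM in immature DC, 3.50-fold higher (2.99 to 4.12). Ppp1r15a (17872), which encodes GADD34, the phosphatase subunit that reverses the block of translation by PERK, had 2909 reads and 154 RPKM in mature against 841 reads and 47.4 RPKM in immature DC, 3.24-fold higher (3.0 to 3.50). Ddit3 (13198), which encodes the death-linked factor CHOP, had 289 reads and 40.7 RPKM in mature against 101 reads and 15.2 RPKM in immature DC, 2.68-fold higher (2.13 to 3.40).

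The other 3 genes of this role lay within 2-fold. Xbp1 (22433), the abundant target of IRE1, had 2025 reads and 138 RPKM in mature against 2227 reads and 162 RPKM in immature DC, 1.17-fold lower (1.10 to 1.25). Counts per gene do not separate spliced from unspliced Xbp1, so they carry no measure of IRE1 activity. Atf6 (226641) stood at 16.0 RPKM in mature and 12.1 RPKM in immature DC, 1.32-fold higher (1.20 to 1.46). Eif2ak3 (13666), which encodes PERK, had 95 mature and 72 immature reads over 9.40% and 9.24% of its length, and its interval spans 1. The order of the sensors per length was thus Ern1 over Atf6 in the mature library, at 1.43 times, and Atf6 over Ern1 in the immature library, where Ern1 stood at 0.541 times Atf6.

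Beyond the members, a list for the branch of PERK and its factor ATF4 had 5 of 16 genes past 2-fold upward in mature DC and 0 downward. There were 11 within 2-fold, and the median was 0.095. The list also holds the other eIF2 kinase genes Eif2ak1, Eif2ak2 and Eif2ak4, named to define it, each with an interval that spans 1. Over all compared genes the shares were 9.05% upward and 11.3% downward. Ddit4, an inhibitor of mTOR signalling, stood at 13.5 RPKM in mature against 1.33 RPKM in immature DC, 10.1-fold higher (6.16 to 17.8). Atf5, a factor of the ATF4 family, stood at 204 RPKM in mature against 32.4 RPKM in immature DC, 6.29-fold higher (5.70 to 6.96), and Nupr1, a small stress protein of chromatin, was 4.07-fold higher (2.70 to 6.32). The remaining 2, named after their values were seen, were Atf3, 2.99-fold higher (2.82 to 3.17), and Trib3, 2.68-fold higher (1.94 to 3.77), a call lost with a pseudocount of 5 RPKM (log2 fold 0.74). Also named after its value was seen, Atf4 itself was at 480.01 RPKM in mature and 281 RPKM in immature DC, 1.71-fold higher (1.64 to 1.78). Not all of the branch was higher, and for 3 of the 16 the interval lay wholly below 1. These 3, also named after their values were seen, were the antioxidant factor gene Nfe2l2, 1.99-fold lower (1.83 to 2.16), the eIF2 subunit gene Eif2s1, 1.58-fold lower (1.43 to 1.74), and the factor gene Cebpb, 1.56-fold lower (1.35 to 1.81). Asns, which makes asparagine and is a classical ATF4 target, stood at 11.3 RPKM in mature against 12.8 RPKM in immature DC with an interval that spans 1. Several of these genes also answer to other signals, and which one acted was not tested.

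Of 30 folding enzymes outside the members, 3 were past 2-fold downward in mature DC, 1 upward and 26 within 2-fold, with a median of -0.14. The lower share lay under the 11.3% of all compared genes. These enzymes took 0.352% of mature and 0.307% of immature reads, a 1.15-fold higher share (1.13 to 1.17). A single gene, Ero1a, held 11073 of the 28437 mature and 5355 of the 23184 immature reads of this list. The interval lay wholly below 1 for 14 genes (46.7%, beside 33.8% of all compared genes) and wholly above 1 for 7 (23.3%, beside 36.1%). The member role of Hsp70 and Hsp90 chaperones and their co-chaperones took a 1.75-fold lower share (1.72 to 1.78). Fkbp11, a prolyl isomerase of secretory cells, was 4.54-fold lower (3.13 to 6.77), Fkbp2, of the same family, 2.89-fold lower (2.46 to 3.41), and Prdx4, the peroxiredoxin of the ER, 2.52-fold lower (2.06 to 3.10). The higher gene was Dnajc1, a membrane-bound J protein, at 124 RPKM in mature and 25.2 RPKM in immature DC, 4.93-fold higher (4.38 to 5.55). Ero1a, the oxidase that recharges disulfide isomerases, named after its value was seen, stood at 437 RPKM in mature against 226 RPKM in immature DC and was 1.94-fold higher (1.87 to 2.00).

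Of 25 N-glycan transfer genes, 2 (8.0%, beside 11.3% of all compared genes) were past 2-fold downward in mature DC, 0 upward and 23 within 2-fold, with a median of -0.35. The interval lay wholly below 1 for 15 of the 25, beside 33.8% of all compared genes. Rpn1, a subunit of the oligosaccharyl transferase, stood at 79.8 RPKM in mature against 203 RPKM in immature DC, 2.55-fold lower (2.43 to 2.68), and Alg8, a glucosyl transferase of the glycan precursor, was 3.81-fold lower (2.94 to 4.98). Of 22 degradation genes outside the members, 2 (9.09%, beside 9.05%) were past 2-fold upward, 0 downward and 20 within 2-fold, with a median of 0.34. The interval lay wholly above 1 for 14 of them (63.6%), beside 36.1% of all compared genes. Rnf185, a membrane ubiquitin ligase, was 2.68-fold higher (2.26 to 3.20), and Fam8a1, a cofactor of Syvn1, 2.89-fold higher (1.96 to 4.36), a call lost with a pseudocount of 5 RPKM (log2 fold 0.81). Further targeting and translocon genes were within 2-fold in 19 of 19 cases, with a median of 0.016, and COPII coat and KDEL receptor genes in 21 of 21, with a median of -0.062. Over all compared genes, 9192 of 11547 lay within 2-fold. Of 14 partners of ATF6 and IRE1, 13 lay within 2-fold; Traf2, an adaptor that binds active IRE1 and TNF receptors, was 2.16-fold higher (1.84 to 2.55) in mature DC. The Traf2 call was lost with TMM factors (log2 fold 0.999), with the length trend removed (0.97), with a pseudocount of 5 RPKM (0.81), and where the interval had to lie wholly beyond 2-fold.

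**Figure D5:**
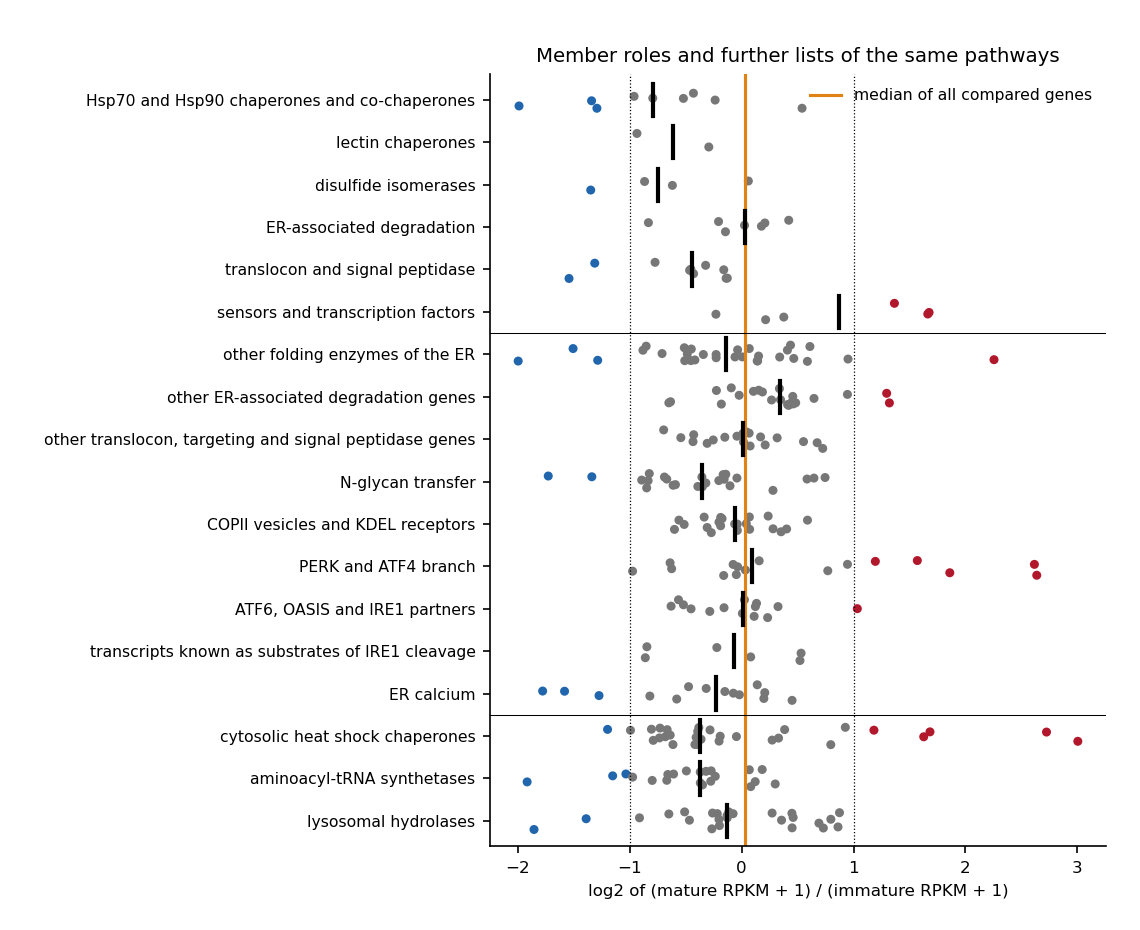
Log2 fold of each compared gene (points) and the median (black bar) for the 6 roles of the members, 9 further lists of the same pathways and 3 lists for comparison; red and blue mark genes at least 2-fold higher or lower in mature DC, dotted lines are 2-fold, and the orange line is the median of all compared genes, 0.026. The role of Hsp70 and Hsp90 chaperones and their co-chaperones has a median of -0.79 and the sensors and factors, Ppp1r15a included, 0.87.

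The lists set beside the members had medians below that of all compared genes, but not uniformly more genes past 2-fold downward. Cytosolic heat shock chaperones had a median log2 fold of -0.37 over 30 genes, with 1 at least 2-fold lower (3.33%, beside 11.3% of all compared genes) and 5 higher (16.7%, beside 9.05%). They took 0.805% of mature and 1.18% of immature reads, a 1.46-fold lower share (1.45 to 1.48), with the interval wholly below 1 for 60.0%. The aminoacyl-tRNA synthetases had a median of -0.37 over 21 genes, with 3 lower (14.3%) and 0 higher. They took 0.161% of mature and 0.219% of immature reads, a 1.36-fold lower share (1.33 to 1.39), with the interval wholly below 1 for 76.2%. For the members the share was 1.39-fold lower and that percentage 60.5, so neither was particular to the ER genes. Lysosomal hydrolases, which are folded in the ER themselves, had a median of -0.13 over 25 genes, with 2 lower (8.0%) and 0 higher. They took 2.86% of mature and 2.95% of immature reads, a 1.03-fold lower share (1.02 to 1.04), with the interval wholly below 1 for 56.0%. With 1 library per state the difference between lists was not tested.

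Markers of other cells moved between the libraries and are given because they stand beside every value above. Neutrophil and granulocyte precursor markers were at least 2-fold lower in mature DC in 9 of 9 cases, with a summed level of 855 RPKM in mature and 6762 RPKM in immature DC; the most abundant, S100a9, stood at 501 RPKM in mature and 3449 RPKM in immature DC. Mast cell, basophil and eosinophil markers were lower in 4 of 4 compared cases, summing to 5.72 RPKM in mature against 183 RPKM in immature DC, with Prg2 at 4.29 RPKM in mature and 145 RPKM in immature DC, while Ms4a2 and Fcer1a were listed in neither file. Macrophage markers were lower in 5 of 8 compared cases, summing to 657 RPKM in mature and 1173 RPKM in immature DC, with Cd68 at 392 RPKM in mature and 684 RPKM in immature DC. Cell cycle genes were lower in 7 of 7 cases, summing to 18.1 RPKM in mature and 483 RPKM in immature DC, with Mki67 at 5.19 RPKM in mature and 121 RPKM in immature DC. The part of these cells, or of dividing cells, in the lower chaperone levels was not tested.

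Plasma cells are rich in ER, so their markers bear on this group directly. Of the 10 genes of this list, 8 were found in the files, and the 3 that reached 1 RPKM in a library were all higher in mature DC. Some defining B lineage genes were at or near 0. Cd79a had 3 mature and 7 immature reads, Pax5 had 0 mature and 2 immature reads, and Mzb1 had 1 mature and 0 immature reads. Jchain and Tnfrsf17 were listed in neither file. Over the whole list of 10 genes, 2 of the 3 compared were at least 2-fold higher in mature DC. That is 66.7%, beside 9.05% of all compared genes. The interval lay wholly above 1 for all 3, with log2 folds from 0.75 to 2.33 and a median of 1.01. The list summed to 216 RPKM in mature against 48.6 RPKM in immature DC. Most of that sum was Sdc1, the syndecan also used as a plasma cell marker, at 197 RPKM in mature against 38.3 RPKM in immature DC. T and NK cell markers summed to 4.68 RPKM in mature and 2.44 RPKM in immature DC, with 0 of 2 compared genes past 2-fold and Cd3d highest at 1.49 RPKM in mature and 0.497 RPKM in immature DC.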

How the data were processed

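Each deposited file lists, per gene, a count of uniquely mapped reads, a model length, the percent of that length covered, and RPKM; the counts are unnormalised and the RPKM values were made by the authors, per the file headers. Counts, lengths and the header totals returned every deposited RPKM within a relative deviation of 1.07e-07. Per the submitters' processing notes the genome build was mm8; the aligner, counter, strand setting and annotation were not given in the sources used here. The deposited coverage percent served only to point out genes read over a small part of their length. Genes missing from either list were set to 0 reads for that library.

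Symbols came from RefSeq's table of GRCm38.p6 by Entrez number, for 16220 of 18090 IDs. Log2 folds used a pseudocount of 1 RPKM and covered genes reaching 1 RPKM in either library. A gene was called at 2-fold on that scale; with 1 library per group no test was made. Ratio intervals are exact (Clopper-Pearson, 95%, on the split of a gene's reads between libraries); they cover counting error only, since reads lack molecular identifiers. At this depth 3 reads on 1000 bases are 0.372 RPKM in the mature and 0.397 RPKM in the immature library. The steps were tested on data simulated with counting error alone, which checks the computation and carries no measure of variation between libraries. Alternatives changed the pseudocount, the filter, the scaling (including TMM of edgeR 4.0.16), the coverage and the threshold. Besides the 39 members, the text names up to 3 genes at least 2-fold higher and up to 3 lower per further list, Cd86 and the class II chain genes, and the most abundant marker per cell type; others are marked, except defining markers given for their reads and Asns, given as a textbook target after its value was seen. Members and lists were chosen with earlier results of these data known. Python 3.11.15, SciPy 1.17.1 and R 4.3.3 were used.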

Additional observations from a re-analysis of the deposited data

How the results depend on the processing

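The calls on the members were stable. The same 3 members were at least 2-fold higher and the same 6 at least 2-fold lower with a pseudocount of 0.1 or 5 RPKM, without a filter, with a filter at 5 RPKM, under a common sum of RPKM, TMM factors and median-of-ratios size factors, with the gene length trend removed (an alternative added after seeing the data), and when the counting interval had to lie wholly beyond 2-fold. When coverage of 50% or more in a library was required, Pdia6 dropped out by construction and 5 were lower. At a threshold of 1.5-fold, 16 members were apart, 13 of them lower, and 4977 of all compared genes, 2474 higher and 2503 lower. With a pseudocount of 5 RPKM, 1155 of all compared genes (2355 with 1 RPKM) lay past 2-fold, 469 higher and 686 lower. The median of the members ranged from -0.35 to -0.22. As a share of the sum of RPKM the members made up 1.08% in mature and 1.48% in immature DC. The sign turned under at least 1 setting for Sec11c, Sec61g, Sel1l and Spcs1, all within 0.16 of 0 on the log2 scale. No paired analysis was possible because each group has 1 library, for which reason no replicate could be left out either. Among the other named genes followed through these settings, the calls of Fam8a1, Trib3, Ryr1, Rcn3 and Traf2 were lost with a pseudocount of 5 RPKM. That of Traf2 was lost also with TMM factors and with the length trend removed. The intervals of Fam8a1, Trib3 and Traf2 did not lie wholly beyond 2-fold (lower ends 1.96, 1.94 and 1.84). Ero1a passed 2-fold under a common sum (1.04), Nfe2l2 under TMM factors (-1.01) and Cd3d with a pseudocount of 0.1 RPKM (1.41). The non-members with an ERSE were not followed through the settings. Of these, Hnrnpa3 was called at a log2 fold of -1.01, with an interval (1.88 to 2.41) not wholly beyond 2-fold. Low read counts limit Derl3 and Sec61g. Eif2ak3 is limited by its coverage, with 95 mature and 72 immature reads over 9.40% and 9.24% of its length, and the source of this was not tested.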

Other observations

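Genes that hold and release calcium in the ER were lower in 3 of 14 compared cases by at least 2-fold in mature DC, higher in 0 and within 2-fold in 11, with a median log2 fold of -0.23; over all compared genes 11.3% were lower. Atp2a3, a calcium pump of the ER membrane found in blood cells, stood at 16.3 RPKM in mature against 58.5 RPKM in immature DC, 3.58-fold lower (3.27 to 3.93). Ryr1, a calcium release channel best known from skeletal muscle, had 20 mature and 288 immature reads over 4.86% and 11.4% of its length, 15.4-fold lower (9.77 to 25.5). Rcn3, a luminal calcium-binding protein, had 9 mature and 36 immature reads, 4.27-fold lower (2.02 to 10.1). With a pseudocount of 5 RPKM the calls of Ryr1 (log2 fold -0.54) and Rcn3 (-0.52) were lost and that of Atp2a3 was kept.

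Transcripts known as substrates of IRE1 cleavage lay within 2-fold in 6 of 6 compared cases, beside 9192 of all 11547 compared genes. Their median log2 fold was -0.070. The list is short, holds genes that answer to other signals too, and levels alone carry no measure of cleavage. Its summed level, 799 RPKM in mature and 1136 RPKM in immature DC, was mostly that of Itgb2, the integrin beta 2 chain gene, named after its value was seen, at 476 RPKM in mature and 865 RPKM in immature DC.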
